A study of Homo sapiens with 6 samples.

Results

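PRDM1, IRF4, XBP1, CD38, SDC1 and TNFRSF17 are 6 genes that drive or mark the step by which a B cell becomes an antibody-secreting plasma cell, and the repressive histone mark H3K27me3 over them was described in 3 established lines of a B cell lymphoma, the diffuse large type. The genes were taken for their known function and not by a measured value. Each had limits on hg19 in whole kb, and the intervals called as enriched for the mark, termed islands, were counted where they lay within 5 kb of those limits. By this rule 6 of 21320 listed islands in Pfeiffer, 8 of 23180 in WSU-DLCL2 and 6 of 28472 in KARPAS-422 belonged to the set, 20 of 72972 in all. The lines are Pfeiffer, with an average gIC50 of 28 nM in the labels, WSU-DLCL2, with 134 nM, and KARPAS-422, with 232 nM. The labels do not name the compound, give every line as EZH2 mutant and list no drug treatment. The study set out to map the mark in lines of unequal response to GSK126, an inhibitor of the methyltransferase EZH2. There was 1 H3K27me3 library per line, with 1 library of input, chromatin sequenced without immunoprecipitation. Without replicates the spread within a line is unknown, and lines are set side by side with no test. The lists held between 16039824 and 17188115 H3K27me3 reads and between 5694645 and 8800268 input reads per line in autosomal islands. The files hold no expression values, so the cell type of the lines was not checked against markers, and an island says nothing here of how much RNA a gene made.

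EZH2 places methyl groups on lysine 27 of histone H3, and the trimethylated form, H3K27me3, marks genes that are kept silent by Polycomb proteins. EZH2 is abundant in germinal centre B cells, where genes of the later plasma cell stage are known to carry the mark, and mutations that raise its trimethylating activity recur in lymphomas of this origin. When a B cell differentiates, IRF4 induces PRDM1, whose product BLIMP-1 shuts down B cell genes, while XBP1 builds up the secretory machinery. CD38, syndecan-1 (SDC1) and BCMA (TNFRSF17) are surface proteins of plasma cells, though not all are restricted to them.

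The promoters of 5 of the 6 genes were matched by symbol in a RefSeq table (GRCh38.p14), which holds 250 bases before and 50 bases after a start. Those of XBP1, PRDM1 and CD38 are shown because the covered part of their first kb differed between lines and their CpG content spans the range of the set. The covered part of the first kb differed for IRF4 too, whose promoter is not printed. Capitals mark CG dinucleotides. Their coordinates are on GRCh38.p14 and cannot be set beside the hg19 positions of islands.
XBP1, chr22:28800520-28800819, GRCh38.p14, reverse strand: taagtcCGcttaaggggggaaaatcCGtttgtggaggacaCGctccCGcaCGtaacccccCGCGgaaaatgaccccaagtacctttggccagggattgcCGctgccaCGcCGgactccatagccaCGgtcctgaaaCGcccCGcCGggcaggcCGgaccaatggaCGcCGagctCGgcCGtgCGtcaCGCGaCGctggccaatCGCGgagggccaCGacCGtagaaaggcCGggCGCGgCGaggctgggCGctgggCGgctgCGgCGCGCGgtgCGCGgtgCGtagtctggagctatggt
PRDM1, chr6:106086086-106086385, GRCh38.p14, forward strand: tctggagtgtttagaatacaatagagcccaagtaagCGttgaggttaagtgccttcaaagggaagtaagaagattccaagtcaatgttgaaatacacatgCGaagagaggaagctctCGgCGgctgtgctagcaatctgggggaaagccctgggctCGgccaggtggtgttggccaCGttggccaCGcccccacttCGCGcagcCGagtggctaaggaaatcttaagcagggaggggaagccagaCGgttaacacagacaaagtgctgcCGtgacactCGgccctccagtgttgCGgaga
CD38, chr4:15778078-15778377, GRCh38.p14, forward strand: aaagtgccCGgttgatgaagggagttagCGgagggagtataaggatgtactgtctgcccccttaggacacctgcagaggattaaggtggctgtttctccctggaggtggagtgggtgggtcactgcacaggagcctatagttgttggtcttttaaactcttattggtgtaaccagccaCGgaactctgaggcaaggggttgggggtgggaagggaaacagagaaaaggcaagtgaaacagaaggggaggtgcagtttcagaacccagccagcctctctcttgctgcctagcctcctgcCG
The XBP1 promoter held 40 CG dinucleotides, more than 92.4% of the 35116 promoters in the table, whereas PRDM1 held 14 and CD38 held 4, against a median of 14 over the table. IRF4 held 32 and SDC1 held 27. PRDM1, XBP1 and SDC1 have more than 1 promoter in the table. Values given for them are of the entry whose distance to the gene's end is closest to the length of the limits used here. Their other entries held 8, 23 and 23 CG dinucleotides. The XBP1 promoter also held the letters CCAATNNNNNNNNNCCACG, those of the endoplasmic reticulum stress response element, as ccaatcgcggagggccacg on the gene's strand, beginning 52 bases before the start. Both strands were searched, no other motif was sought, and 0.0769% of all promoters in the table hold these letters. They were absent from the other XBP1 entry.

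H3K27me3 covered the 6 genes unevenly, from near-complete cover of SDC1 to none inside the limits of TNFRSF17. Over the 6 windows together, 218 kb of gene limits and flanks, 39.8% of the bases lay in islands of Pfeiffer, 51.8% in those of WSU-DLCL2 and 44.3% in those of KARPAS-422. Over all autosomes the shares were 25.6%, 24.8% and 24.7%. PRDM1 and SDC1 were covered to between 89.0% and 100% in every line. CD38 was covered mainly near its start, and IRF4 and XBP1 differed most between lines. Over the 6 windows together, the order of the covered shares was not that of the gIC50 values. PRDM1 was the only gene whose share rose in that order, and with a flank of 20 kb it did not.

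**Figure D1:**
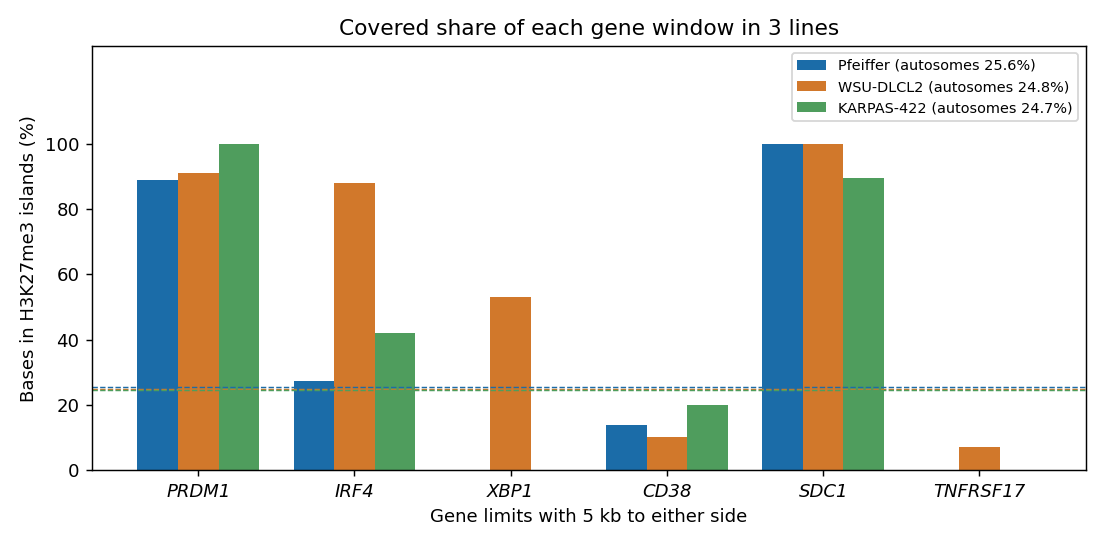
Share of bases inside H3K27me3 islands (percent, vertical axis) for each gene window (gene limits with 5 kb to either side, horizontal axis), with 1 bar per line and dashed lines at the covered share of all autosomes in that line. PRDM1 and SDC1 lie between 89.0% and 100% in the 3 lines, XBP1 reaches 52.9% in WSU-DLCL2 and is at 0 in Pfeiffer and KARPAS-422, and CD38 lies below the dashed lines throughout.

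An island met 4 of 6 windows in Pfeiffer, against 38.7% of all autosomal stretches of 36 kb, the window length closest to the mean of the set. In WSU-DLCL2 an island met 6 of 6 windows, against 39.2% of such stretches, and in KARPAS-422 4 of 6, against 40.8%. At least 50% of the window was covered for PRDM1 and SDC1 in Pfeiffer and KARPAS-422, and for PRDM1, IRF4, XBP1 and SDC1 in WSU-DLCL2, that is for 2, 4 and 2 of 6 genes in the order of the gIC50 values. Among stretches of 36 kb, 26.3% reached this in Pfeiffer, 25.4% reached it in WSU-DLCL2 and 25.1% did in KARPAS-422. The kb that holds the start was at least partly covered in 3 of the 5 genes with a known strand in Pfeiffer (IRF4, CD38 and SDC1), in 5 of 5 in WSU-DLCL2 and in 4 of 5, all but XBP1, in KARPAS-422. Of all 1 kb stretches, 26.2%, 25.4% and 25.4% were covered to any extent in the 3 lists. These stretches include DNA without genes, and no background of genes alone was computed, because no annotation on hg19 was used here. With 6 genes the counts are a description of these loci.

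**Figure D2:**
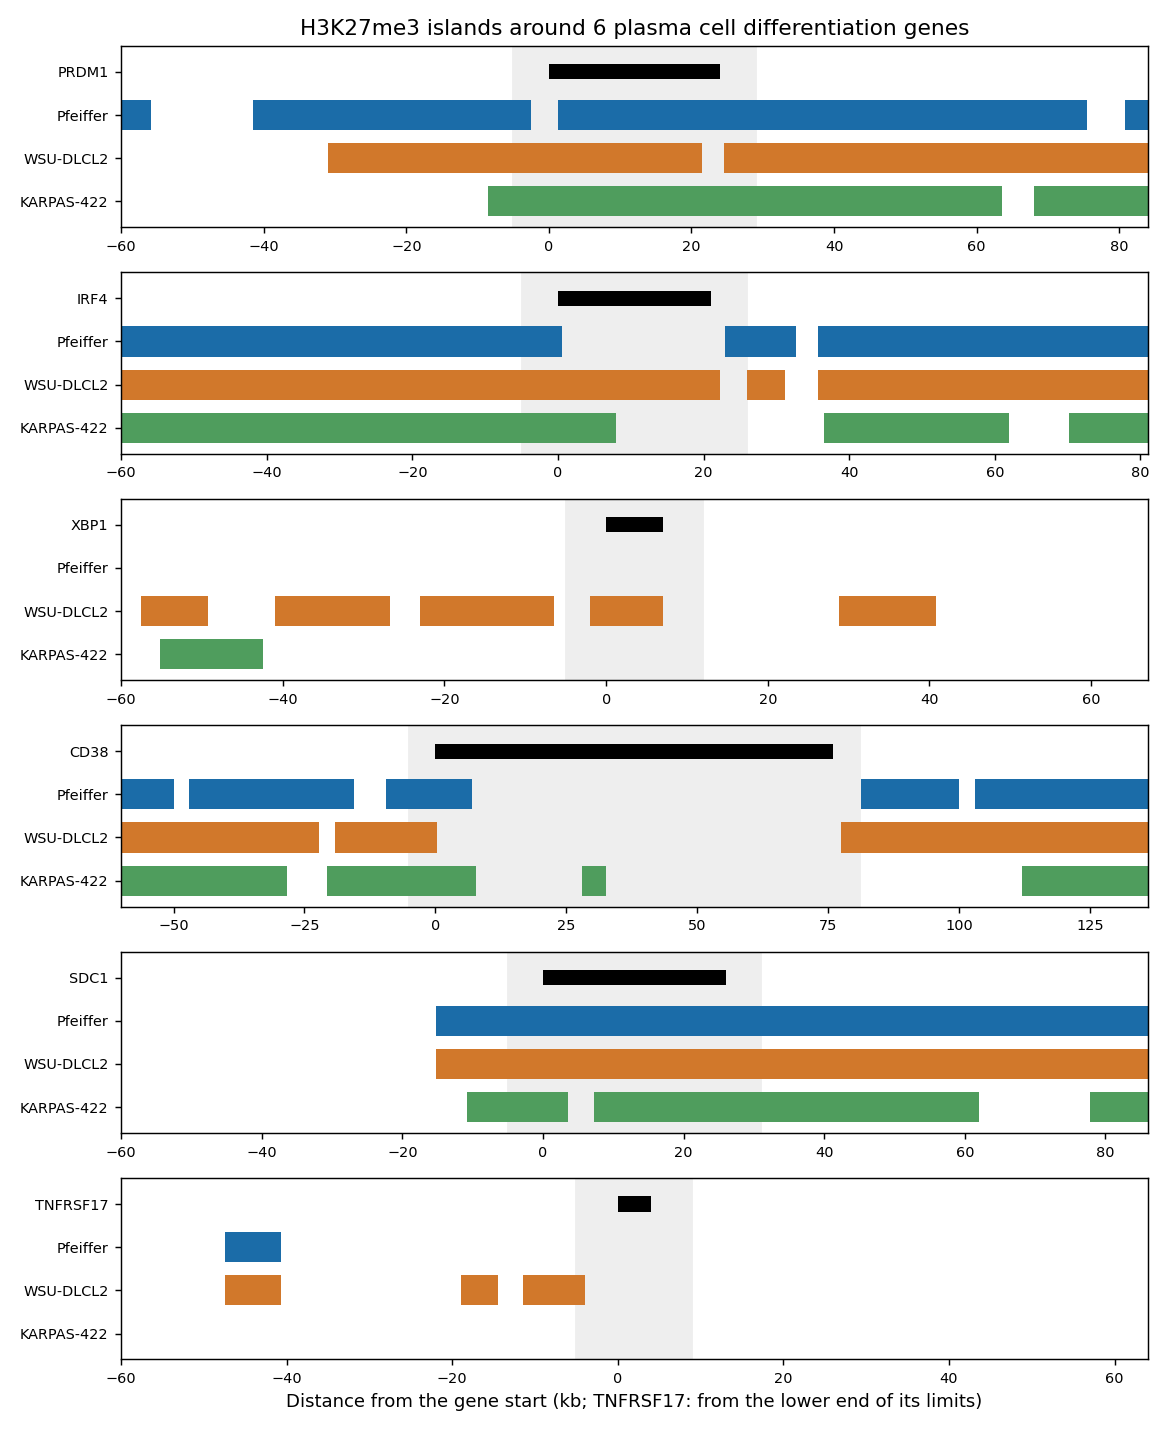
Islands of each line (coloured bars) around the 6 genes (black bars), by distance from the gene start in kb with transcription to the right, or from the lower end of the limits for TNFRSF17; grey marks the window of 5 kb around the limits. SDC1 and PRDM1 are covered for most of their length in the 3 lines, with a gap at the start of PRDM1 in Pfeiffer, at its end in WSU-DLCL2 and inside SDC1 in KARPAS-422. The island before IRF4 ends 0.5, 22.25 and 8 kb after its start in Pfeiffer, WSU-DLCL2 and KARPAS-422, the cover of CD38 lies mostly around its start, and XBP1 has an island in WSU-DLCL2 only among the 3 lists.

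PRDM1, which encodes the repressor BLIMP-1, was covered along nearly its whole length in the 3 lines. It lies on the forward strand of chromosome 6 from 106534001 to 106558000, and islands took up 89.0% of the window in Pfeiffer, 91.2% of it in WSU-DLCL2 and 100% of it in KARPAS-422. Of the 34 kb, 27.25 kb were covered in all 3 lines and the other 6.75 kb in 2. The lines differed in where the cover was broken. In Pfeiffer the islands from 106492501 to 106531500 and from 106535251 to 106609500 left a gap of 3.75 kb that holds the start of the gene. In WSU-DLCL2 the islands from 106503001 to 106555500 and from 106558501 to 106631250 left 3 kb at the far end of the gene. In KARPAS-422 a single island ran from 106525501 to 106597500 across start, body and end. The shortest gap in any of the 3 lists was 3 kb, and 23.4% of all gaps in Pfeiffer were no longer than 3.75 kb.

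These islands were longer than most of their lists but read at an ordinary density, with 19.9 and 22.3 H3K27me3 reads per kb in Pfeiffer, 21.3 in both of WSU-DLCL2 and 19.6 in KARPAS-422, next to list medians of 19.7, 20.9 and 20.1. Pfeiffer had 775 H3K27me3 and 443 input reads in the first island and 1659 and 872 in the second. WSU-DLCL2 had 1119 H3K27me3 and 574 input reads in the first and 1551 and 858 in the second, and KARPAS-422 had 1409 and 472 in its single island. The authors' fold, the ratio of H3K27me3 to input reads after scaling the libraries, was 1.51 and 1.64 for the islands of Pfeiffer, 1.54 and 1.42 for those of WSU-DLCL2 and 1.81 for that of KARPAS-422. Over all listed islands the median folds were 1.58, 1.54 and 1.61. Pooled over the islands of a line, Pfeiffer had a fold of 1.59 (95% interval 1.49 to 1.71), WSU-DLCL2 of 1.47 (1.38 to 1.57) and KARPAS-422 of 1.81 (1.63 to 2.02). The intervals are exact for the ratio of 2 counts and cover counting error only, since amplified reads are not independent molecules. They take no account of the calling of islands on the same reads, and each fold rests on the libraries and scaling of its own line. Input reads per kb in the 5 Mb around the gene, relative to the line's autosomal median were 1.02, 0.999 and 1.03 in the 3 lines. This relative input is given for each gene because it follows DNA copy number among other things.

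IRF4, the transcription factor that induces PRDM1, lay at the end of a long island in every line, and the island reached a different distance into the gene. The gene lies on the forward strand of chromosome 6 from 391001 to 412000. In Pfeiffer the island ran from 249751 to 391500 and ended in the first kb of the limits. In WSU-DLCL2 it ran from 250501 to 413250 and covered all 21 kb of the gene, and in KARPAS-422 it ran from 277501 to 399000 and covered the first 8 kb. Islands thus took up 27.4% of the window in Pfeiffer, 87.9% of it in WSU-DLCL2 and 41.9% of it in KARPAS-422, and 5.5 of its 31 kb were covered in all 3 lines. Whether the start itself lay inside the island of Pfeiffer could not be read from limits in whole kb, since 500 of the 1000 bases that hold it were covered. A second island of Pfeiffer, from 414001 to 423750, began 2 kb after the gene, and the next island of WSU-DLCL2, from 417001, lay just outside the window.

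The long island before IRF4 was the most densely read of the set, in H3K27me3 and in input alike. Pfeiffer had 7387 H3K27me3 and 3647 input reads in it, WSU-DLCL2 had 5536 and 2691, and KARPAS-422 had 4104 and 1332. Per kb this was 2.65, 1.63 and 1.68 times the median island of the line for H3K27me3 and 2.39, 1.54 and 1.46 times for input. More than 97.5% of the autosomal islands of each line had fewer input reads per kb. Pfeiffer had a fold of 1.74 here (1.68 to 1.82), WSU-DLCL2 of 1.62 (1.55 to 1.70) and KARPAS-422 of 1.87 (1.76 to 1.99). The 5 Mb window around the gene is cut short by the end of the chromosome and includes this island. Relative input in it was 1.16, 1.07 and 0.994, and the part of the dense input in the limits of this island was not tested.

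XBP1, the transcription factor that expands the endoplasmic reticulum and secretory pathway of plasma cells, carried an island in WSU-DLCL2, and no island met its window in Pfeiffer or KARPAS-422. The gene lies on the reverse strand of chromosome 22 from 29190001 to 29197000. The island of WSU-DLCL2, from 29190001 to 29199000, began with the limits of the gene, covered the whole body and passed the start by 2 kb, so the end of the gene with the CpG-rich promoter shown above was covered. It held 242 H3K27me3 and 76 input reads, and its fold of 2.51 (1.93 to 3.29) was the highest of the 20 islands. Among all autosomal islands of WSU-DLCL2, 98.1% had a lower fold. It was the single island of the 20 with a fold of 2 or more, a level that 10.5%, 11.3% and 19.6% of the autosomal islands passed in Pfeiffer, WSU-DLCL2 and KARPAS-422. Its input reads per kb were 0.786 times the median island, and 6.23% of the islands of the line had fewer.

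The island over XBP1 was one of a row in WSU-DLCL2. It was followed on the side of the start by islands from 29203501 to 29220000, with 410 H3K27me3 and 143 input reads and a fold of 2.26, and from 29223751 to 29238000, with a fold of 1.62. On the other side an island from 29156251 to 29168250 had a fold of 1.97. Pfeiffer had no listed island between 28850251 and 29274000, a stretch of 423.75 kb in which WSU-DLCL2 had 8 islands covering 97.5 kb and KARPAS-422 had 4 covering 58.5 kb. KARPAS-422 had none between 29007001 and 29239500, where WSU-DLCL2 had 6 islands covering 85.5 kb. An interval without an island held too few H3K27me3 reads over input to be called, not necessarily none. Relative input around XBP1 was 0.975, 0.929 and 0.911 in the 3 lines. Of stretches of 17 kb, 33.7%, 33.6% and 34.9% held at least 1 covered base in the 3 lines.

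CD38, an ectoenzyme that is abundant on plasma cells, had the mark around its start and little of it in its body. The gene lies on the forward strand of chromosome 4 from 15779001 to 15855000. An island entered the first kb of the limits in each line, from 15769501 to 15786000 in Pfeiffer, from 15759751 to 15779250 in WSU-DLCL2 and from 15758251 to 15786750 in KARPAS-422. The island of WSU-DLCL2 covered only 250 of the 1000 bases of that kb, so whether the start itself lay in it could not be read from limits in whole kb. The 5 kb before the gene were covered in the 3 lines. Within its 76 kb, islands covered the first 7 kb in Pfeiffer, 0.25 kb in WSU-DLCL2, and 7.75 kb and a short stretch from 15807001 to 15811500 in KARPAS-422. The window was covered to 14.0%, 10.2% and 20.1%, below the covered share of the autosomes in each line. This direction turned with a flank of 20 kb, where the cover was 30.8%, 32.8% and 27.8%, above the autosomal 25.6%, 24.8% and 24.7%. Of its 86 kb, 5.25 kb were covered in all 3 lines and 65.25 kb in none.

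At the start of CD38 the island of Pfeiffer held 335 H3K27me3 and 152 input reads, that of WSU-DLCL2 518 and 220, and that of KARPAS-422 524 and 198. Its fold was 1.90 (1.56 to 2.31), 1.86 (1.58 to 2.18) and 1.61 (1.36 to 1.90). The short island inside the gene in KARPAS-422 rested on 102 H3K27me3 and 39 input reads and had a fold of 1.59 (1.09 to 2.36). After the gene, WSU-DLCL2 had an island of 142.5 kb from 15856501, which entered the window by 3.5 kb and had a fold of 1.55. The next island of Pfeiffer, from 15860251, began 5.25 kb after the gene and so lay just outside the rule. CD38 had the fewest CG dinucleotides among the 5 promoters. An island reached its first kb in each line, as it did for IRF4 and SDC1, whose promoters held 32 and 27. What part CG content had in this was not tested. Relative input around it was 0.938, 1.00 and 0.988.

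SDC1, which encodes syndecan-1, the surface proteoglycan also known as CD138, had the largest share of its window, 89.6%, covered in all 3 lines among the 6 genes. It lies on the reverse strand of chromosome 2 from 20400001 to 20426000, and islands took up 100% of its window in Pfeiffer, 100% in WSU-DLCL2, and 89.6% of it in KARPAS-422. Of the 36 kb, 32.25 kb were covered in all 3 lines. Pfeiffer and WSU-DLCL2 had a single island with the same limits to the base, from 20286001 to 20441250, a length of 155.25 kb. Of the 21258 autosomal islands of Pfeiffer, 405 (1.91%) had the same limits as an island of WSU-DLCL2, and among its 1240 islands of at least 100 kb this held for 15 (1.21%). In KARPAS-422 the islands from 20364001 to 20418750 and from 20422501 to 20436750 left a gap of 3.75 kb inside the gene, while the start was covered.

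Over SDC1 the island of Pfeiffer held 4392 H3K27me3 and 1960 input reads, that of WSU-DLCL2 4438 and 1791, and both of KARPAS-422 together 1713 and 536. The fold was 1.93 (1.83 to 2.04), 1.95 (1.85 to 2.06) and 1.94 (1.76 to 2.14) in the 3 lines, where KARPAS-422 pools both islands. A lower fold was found in 85.9% of the autosomal islands of Pfeiffer, 86.7% of those of WSU-DLCL2 and, for the longer island, 78.6% of those of KARPAS-422. Relative input around SDC1 was 1.04, 1.07 and 1.02. Among all autosomal stretches of 36 kb, 9.44%, 8.1% and 6.96% were covered in full in the 3 lists.

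**Figure D3:**
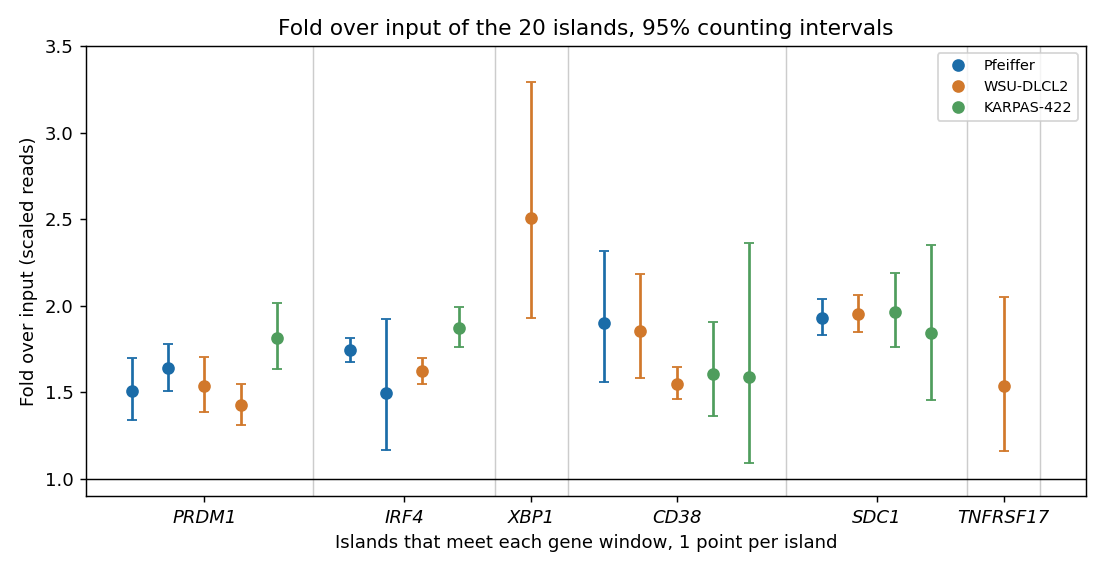
Fold of H3K27me3 over input reads after library scaling (vertical axis), 1 point per island that meets a gene window, with exact 95% counting intervals and a line at 1. The island over XBP1 in WSU-DLCL2 lies highest at 2.51 with a wide interval, and the islands over SDC1 lie between 1.84 and 1.96 in the 3 lines.

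TNFRSF17, which encodes BCMA, the receptor for the plasma cell survival factors BAFF and APRIL, had no island inside its limits in any of the 3 lines. The gene lies on chromosome 16 from 12058001 to 12062000. In WSU-DLCL2 an island from 12046501 to 12054000 ended 4 kb before the lower limit and so covered 1 kb, or 7.14%, of the window of 14 kb. It held 150 H3K27me3 and 77 input reads and had a fold of 1.54 (1.16 to 2.05), close to the median of the line. The nearest islands below the gene in Pfeiffer and KARPAS-422 ended 40.75 and 157.75 kb away. Above the gene the next island began 601, 607.75 and 570.25 kb away in Pfeiffer, WSU-DLCL2 and KARPAS-422, so the stretch without an island was 645.75, 615.75 and 732 kb long. Relative input around the gene was 1.47 for Pfeiffer, 0.980 for WSU-DLCL2 and 0.962 for KARPAS-422. It was read from the islands around the gene, and input reads outside islands were not counted. Pfeiffer and KARPAS-422 had no island in the window, and what part input had in this was not tested. Of stretches of 14 kb, the length of the window, 67.3%, 67.5% and 66.4% held no covered base, which makes an empty window of this size the common case. No such share was computed for stretches as long as the empty ones around the gene.

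**Figure D4:**
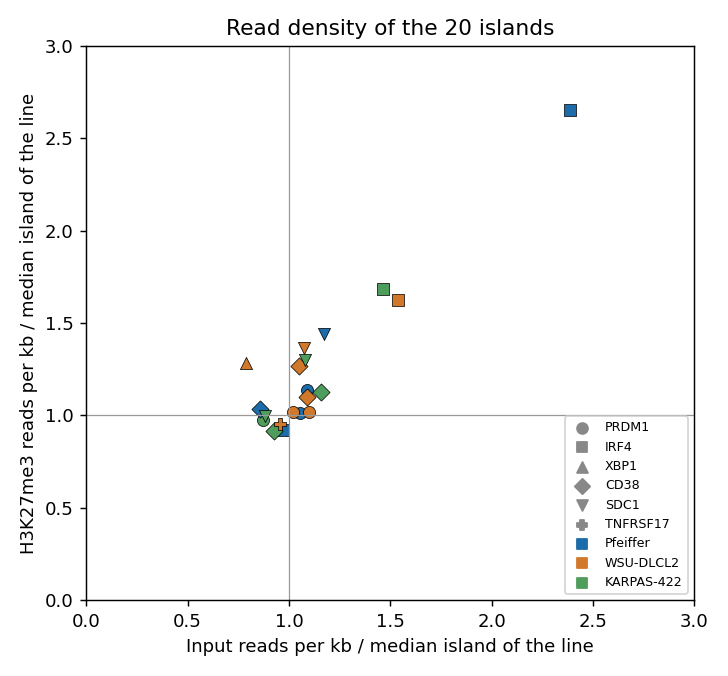
H3K27me3 reads per kb (vertical axis) against input reads per kb (horizontal axis) of the 20 islands, each divided by the median over all autosomal islands of its line; symbols give the gene and colours the line. The long islands before IRF4 stand apart at 1.46 to 2.39 times the median input, and the island over XBP1 lies at 0.786 times the median input and 1.29 times the median H3K27me3.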

How the data were processed

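H3K27me3 chromatin immunoprecipitation and input libraries of 3 cell lines were sequenced, 1 of each per line. Per the submitters' processing notes, the authors used Bowtie with hg19 and SICER to call islands; versions, read filters and treatment of duplicates are not given there. List names state windows of 750 bases, gaps up to 2250 bases and an FDR of 0.001. For every island the authors deposited raw read counts of H3K27me3 and input, p-values and q-values, and a fold, the ratio of both counts after library scaling.

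The members and lists were chosen with earlier results of these data known. The rule for named genes was the 6 members in all lines with all islands within 5 kb, and the nearest islands otherwise. The further genes listed for an hg19 annotation were not analysed here. Covered bases, reads and folds were computed per gene and line. Dividing count ratios by the deposited folds returned a library ratio of H3K27me3 to input of 1.16, 1.27 and 1.65 in Pfeiffer, WSU-DLCL2 and KARPAS-422. Background shares came from all non-overlapping stretches of equal length on 22 autosomes. Relative input was the input reads per kb of islands centred within 5 Mb around a gene, divided by the median over 1 Mb bins pooled with 2 Mb to either side. File positions, counted from 0, are printed counted from 1. The total depth of the libraries is unknown. The functions were tested on simulated data. As alternatives, islands were limited to an FDR of 1e-10 or to folds from 2 upward, and the windows had no flank or 20 kb, with islands under 5 kb apart joined or ratios unscaled as further settings. Software was Python 3.11.15 with matplotlib 3.10.9, scipy 1.17.1, pandas 2.3.3 and numpy 2.4.6.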

Additional observations from a re-analysis of the deposited data

How the results depend on the processing

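The covered share over the 6 genes and the number of islands were within 1.5 times the reported values at a false discovery rate of 1e-10 and with islands under 5 kb apart joined. With a flank of 20 kb Pfeiffer had a share of 48.4%, WSU-DLCL2 of 62.2% and KARPAS-422 of 42.8%, so that Pfeiffer stood above KARPAS-422, whereas it stood below with 5 kb. IRF4 in Pfeiffer then had 58.2%, and CD38 passed the autosomal share in the 3 lines. Without a flank WSU-DLCL2 had 5 islands. Limiting the lists to a fold of at least 2 left 0% and 0 islands in Pfeiffer, 0% and 0 islands in KARPAS-422, and 4.13% and 1 island, that over XBP1, in WSU-DLCL2. At the stricter false discovery rate IRF4 in Pfeiffer had 17.7% in place of 27.4%, and TNFRSF17 in WSU-DLCL2 came to 0%. CD38 in KARPAS-422 had 14.8% in place of 20.1%, since the short island inside the gene dropped out. Joining closed the gaps at PRDM1 in Pfeiffer and WSU-DLCL2 and in SDC1 in KARPAS-422. Without a flank IRF4 was covered to 2.38% in Pfeiffer and CD38 to 0.329% in WSU-DLCL2. Leaving out the library scaling multiplies every fold of a line by its library ratio, 1.16, 1.27 or 1.65. No paired analysis was possible because each line had 1 library of a kind. Of the 20 islands, that over XBP1 in WSU-DLCL2, with 76 input reads, had the widest fold interval in absolute terms, 1.93 to 3.29. Relative to its fold, the interval was wider for the short island inside CD38 in KARPAS-422. That island had 39 input reads and an interval of 1.09 to 2.36.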
